A study of Mus musculus with 2 samples.

Results

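Open chromatin at the promoters and in the surroundings of 10 nuclear receptor genes of the intestinal epithelium was compared between control and Taf4-inactivated enteroids. The genes were Rxra, Ppara, Pparg, Ppard, Nr1h3, Nr1i2, Vdr, Rara, Nr5a2 and Esrra, out of 22380 protein-coding genes in the annotation, and they were taken as a named list of ligand-dependent and orphan receptors, drawn up with earlier results of these data known. Annotated start sites no more than 1 kb apart were joined into 1 promoter, numbered P1, P2 and so on along transcription, which gave 28 promoters out of 39773 for all coding genes. Peaks within 1 kb of a start site were assigned to that promoter. All other peaks in the gene body or within 20 kb on each side were taken as distal, 88 of 90445 peaks in control and 77 of 71282 in the peak list of the Taf4-inactivated library, called the inactivated list.

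Accessibility was read by ATAC-seq, in which a transposase cuts and tags open DNA. The cells came from enteroids, organ-like cultures that had been started from crypts of the ileum. The donor mice had the strain label C57Bl6/129sv and were aged 4 months. Both genotypes carried Taf4lox/lox, and the Taf4-inactivated enteroids also carried VilCreERT2, a tamoxifen-activated Cre driven by the villin promoter and so active in epithelial cells. Both were treated with 1 µM 4-hydroxytamoxifen for 3 days. There was 1 library per genotype, so no difference between genotypes has a replicate check and no p-value was computed. In such bulk libraries a smaller share of cells with an open site and less opening per cell cannot be told apart.

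Nuclear receptors are transcription factors with a zinc finger DNA-binding domain and a domain that, in most of them, binds a small lipophilic ligand. RXR (Rxra) is the common partner: it pairs with the PPARs (fatty acids), LXR (Nr1h3, oxysterols), PXR (Nr1i2, xenobiotics and bile acids), VDR (vitamin D) and RAR (retinoic acid), and these pairs bind repeats of the hexamer AGGTCA whose spacing differs between partners. Nr5a2 and Esrra are called orphan receptors and bind a single hexamer with a 5′ extension. In the gut these receptors are known for control of lipid, sterol, bile acid, calcium and drug handling.

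The control list covered 66.0 Mb and the inactivated list 47.7 Mb, and the depth behind the second was estimated at 60.5% of the first from the background levels of the peaks. A peak missing from the shallower list may thus lie below its threshold. The fold of each peak is relative to its own library and so not on a common scale, with a median of 2.03 in control and 2.45 in the inactivated list, so each peak was given the percentile of its fold within its own list. The rank difference is the percentile in the inactivated list minus that in control, in points, and differences of at least 25 points were counted. The Taf4a promoter had a peak in both lists, at percentiles 74.7 and 58.7, a value that does not check the deletion. Of 5 epithelial marker genes, 5 had a promoter peak in both lists, where 62.1% of coding genes had one. Vil1 and Epcam differed by −18.9 and −18.8 points, and Cdh1, Cdx2 and Krt8 by 1.22, 2.84 and 1.01 points. Ranked by −log10 p, Vil1 differed by 1.27 points, Epcam by −12.2 points, and the others by −4.6 points at Cdx2 to 1.95 points at Krt8. Of 7 markers of other cell types, Ptprc and Cd3e (blood cells) had none, Pecam1 (endothelium) had a peak in control only, and Des, Pdgfra, Col1a1 and Tubb3 had peaks in both. Tubb3 (neurons) stood at 6.28 and 69.9, Pdgfra and Col1a1 (mesenchyme) at 74.3 and 33.3 and at 10.7 and 18.1, and Des (muscle) at 81.9 and 53.2, and a part of other cells in the results was not tested.

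All 10 receptor genes had at least 1 promoter with a peak in both lists, where 62.1% of coding genes had one. Counted by promoter, 16 of 28 had a peak in both lists (57.1%, exact 95% interval 37.2 to 75.5, counting error only), compared with 41.0% of the promoters of coding genes. A peak in control only was found at 1 promoter, Rxra P3 (background 8.27%), and a peak in the inactivated list only at 2, Ppara P2 and Vdr P4 (background 4.02%). The other 9 promoters had no peak in either list, where the share for coding genes was 46.7%. The interval of the shared promoters includes the background, and promoters of 1 gene are not independent.

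Peaks at alternative promoters differed within genes, and a peak near a start site does not show that the start is used. Among first promoters 8 of 10 were in both lists (59.2% of first promoters of coding genes), and among later ones 8 of 18 (17.6%). Of the 8 members with several promoters, 5 had at least 2 of them in both lists, compared with 22.8% of coding genes with several promoters. These were Ppard, Rxra, Vdr, Nr1h3 and Rara, and in Vdr the promoters P2 and P3 shared 1 peak. The Nr1h3 P1 peak also lay near the starts of Acp2 and Gm13783. The peaks assigned to Vdr P2 and Rara P5 did not include the start site in either list. The promoters without a peak included the first annotated ones of Vdr and Rara.

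**Figure D1:**
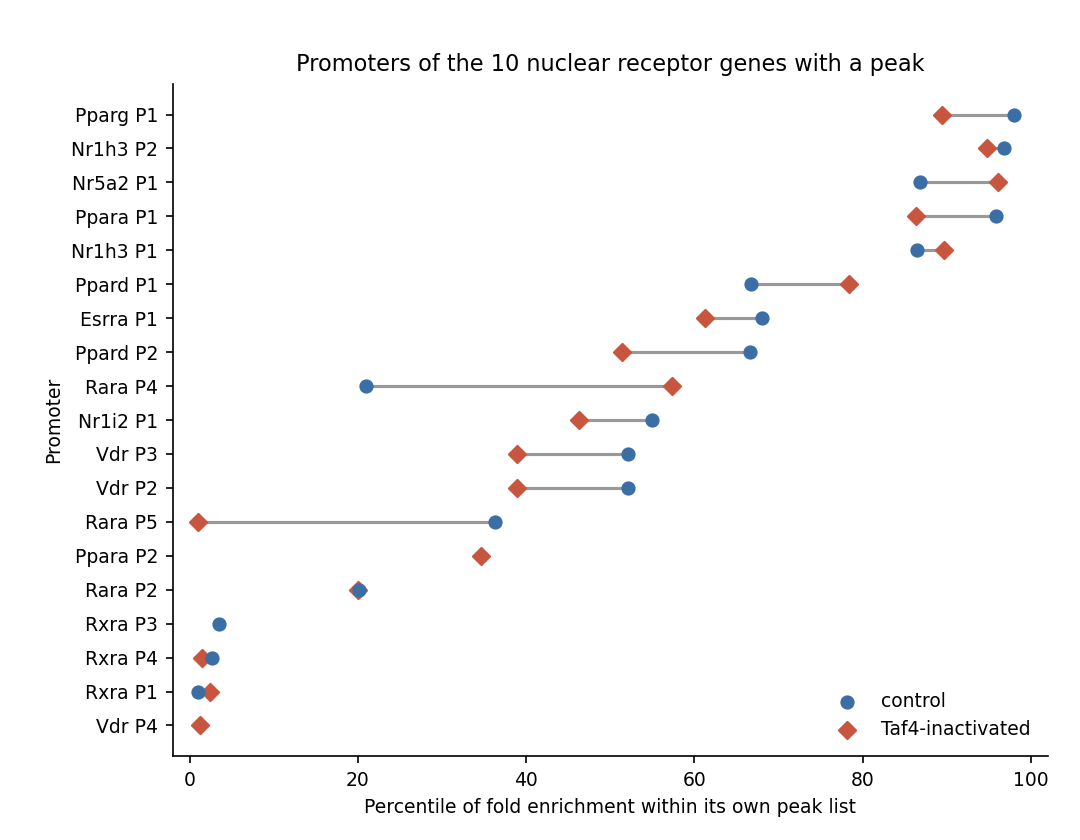
Percentile of fold enrichment (x axis) of the strongest peak at each promoter (y axis) in control (circles) and in the inactivated list (diamonds). Lines join promoters with a peak in both lists. Most pairs lie close together, and Rara P4 and Rara P5 are the pairs set furthest apart, in opposite directions.

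Across the 16 promoters in both lists the median rank difference was −4.41 points, compared with −2.75 points over the 16317 promoters of coding genes in both lists. Of the 16 promoters 1, Rara P4, had a difference of 25 points or more (background 7.13%) and 1, Rara P5, a difference of −25 points or below (background 9.76%). The other 14 lay between −15.3 points at Ppard P2 and 11.6 points at Ppard P1, and the shares are near those of all coding promoters.

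Rxra (chr2:27531960-27618477, plus strand), the shared dimer partner, had the lowest promoter percentiles of the list in control. The peak at P1, where 3 coding transcripts start, was 1700 bp wide in control and 1539 bp in the inactivated list, but its fold was 1.68 and 1.97, at percentiles 1.05 and 2.48. P4 stood at 2.61 and 1.46, and P3 had a 215-bp peak in control only, at 3.51. The percentiles of −log10 p at P1, 52.7 and 55.3, were in the middle of the lists. Of 12 distal peaks in control 7 had no partner, that is no peak of the other list overlapping by at least 1 bp. Those 7 lay at percentiles up to 19.6. Over all peaks more than 1 kb from coding start sites, the background, 61.0% in control and 48.3% in the inactivated list had no partner. The strongest distal peak, in an intron at chr2:27573708-27574166, stood at 83.9 in control and 82.1 in the inactivated list, a difference of −1.76 points. A 2031-bp intron peak and an upstream peak ranked 34.4 and 29.9 points higher in the inactivated list, but 16.8 and 1.6 points by −log10 p.

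Pparg (chr6:115311239-115440419, plus strand), the receptor known for lipid storage genes, had the highest promoter percentile of the list in control. Its P1 peak had a fold of 3.27 in control and 3.64 in the inactivated list, at percentiles 98.0 and 89.4. P2, 60.8 kb further along the gene, had no peak in either list. The sequences of both promoters, 250 bases before to 50 after the start in mm9, are given with CG dinucleotides in capitals, as a promoter with a peak in both lists and one without a peak:
Pparg P1, chr6:115310989-115311288, plus strand: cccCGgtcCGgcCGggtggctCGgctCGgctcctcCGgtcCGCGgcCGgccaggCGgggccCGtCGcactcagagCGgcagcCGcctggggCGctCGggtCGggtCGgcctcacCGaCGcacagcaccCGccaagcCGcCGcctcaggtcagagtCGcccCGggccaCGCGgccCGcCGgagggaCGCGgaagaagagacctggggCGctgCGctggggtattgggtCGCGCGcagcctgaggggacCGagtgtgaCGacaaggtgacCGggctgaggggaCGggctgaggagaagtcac
Pparg P2, chr6:115371834-115372133, plus strand: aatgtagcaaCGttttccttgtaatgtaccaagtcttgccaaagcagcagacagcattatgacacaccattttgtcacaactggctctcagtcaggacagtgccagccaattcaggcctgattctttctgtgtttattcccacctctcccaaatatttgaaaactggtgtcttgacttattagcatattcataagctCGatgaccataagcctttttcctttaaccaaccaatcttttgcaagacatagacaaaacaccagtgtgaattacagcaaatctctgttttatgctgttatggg
P1 held 40 CG dinucleotides at 76.0% G and C, and P2 held 2 at 40.3%. The same contrast held for coding genes in general, where the median observed to expected CG ratio was 0.711 for promoters in both lists and 0.207 for those in neither, and among the receptors the medians were 0.543 and 0.198. Not all open promoters were rich in CG: the ratio was 0.93 at Pparg P1 but 0.15 at Nr5a2 P1 and 0.13 at Nr1i2 P1.

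Pparg had 5 distal peaks in control and 7 in the inactivated list. An intron peak at chr6:115416146-115417023 in control, percentile 78.7, overlapped the strongest distal peak of the inactivated list, chr6:115416635-115417104, percentile 88.2. The stretch inside the latter held the HNF4 sequence CAAAGTCCA at 2 places, on the minus strand, so that TGGACTTTG is in capitals:
Pparg intron peak, chr6:115416732-115417012, plus strand: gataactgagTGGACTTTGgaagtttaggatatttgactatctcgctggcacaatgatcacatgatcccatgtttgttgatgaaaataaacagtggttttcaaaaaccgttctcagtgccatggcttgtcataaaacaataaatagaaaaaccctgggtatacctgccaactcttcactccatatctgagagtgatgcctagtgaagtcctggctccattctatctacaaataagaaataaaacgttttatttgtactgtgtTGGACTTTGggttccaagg
Of the 7 inactivated distal peaks of Pparg 3 had no partner (background 48.3%), 2 in introns at 71.2 and 77.4, and the third downstream at 65.4. In control 1 of 5 had no partner (background 61.0%), and it lay upstream at 77.3.

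Ppara (chr15:85565413-85633249, plus strand), the fatty acid sensor that drives genes of fatty acid oxidation, had its P1 peak at percentile 95.9 in control and 86.3 in the inactivated list. P2, the start of a single non-coding transcript, had a peak of 672 bp in the inactivated list only, with a fold of 2.29 and a percentile of 34.7. Of 15 distal peaks in control 7 had no partner (background 61.0%), and of 10 in the inactivated list 2 had none (background 48.3%). The intron site that was strongest in the inactivated list, at 97.4 and chr15:85584505-85585303, stood at 81.0 in control, chr15:85584575-85585846, a difference of 16.4 points. In control 3 other intron peaks ranked above it, at 82.2 to 84.0. It held, within 85 bases shown here because 3 recognition sequences fall together in them, CAAAGTCCA and a run in which AGGTCA is shared by a repeat with 1 base between the hexamers and a repeat with 5 bases between them, both counted with up to 2 mismatches and all in capitals:
Ppara intron peak, chr15:85584837-85584921, plus strand: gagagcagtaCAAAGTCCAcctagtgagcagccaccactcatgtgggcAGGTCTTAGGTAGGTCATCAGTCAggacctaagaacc
A 1-base spacing is the type bound by PPAR with RXR and by HNF4. Over the 8 shared distal sites of Ppara the rank differences ran from −9.57 to 26.9 points.

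Ppard (chr17:28369699-28438414, plus strand), the most widely expressed PPAR, had 2 promoters in both lists that differed in direction. P1 stood at 66.8 and 78.4, a difference of 11.6 points, and P2, 39.0 kb further along, at 66.6 and 51.4, a difference of −15.3 points. The distal peaks numbered 15 in control and 7 in the inactivated list. Of the 15, 9 had no partner (background 61.0%), all at percentiles of 49.7 or below. Of 6 shared distal sites 3 had differences of 25 points or more (12.0% of all distal sites in both lists), 40.9, 38.0 and 38.6 points. By −log10 p the same sites differed by 13.4, 42.5 and 8.47 points. The lowest difference was −17.9 points, at an upstream site. The strongest distal site of both lists lay downstream at the start of Fance, at 88.3 and 90.7.

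Nr1h3 (chr2:91024218-91042991, minus strand), LXR alpha, which senses oxysterols and drives cholesterol efflux genes, had strong peaks at P2, where 4 coding transcripts start, at 96.8 and 94.7. Its P1 peak at 86.5 and 89.7 also lies within 1 kb of the start sites of Acp2 and Gm13783 and cannot be given to Nr1h3 alone, and P3 and P4 had none. Distal peaks numbered 5 in control and 1 in the inactivated list. The shared one, downstream at the start of Madd, ranked 85.6 and 92.7. The other 4 control peaks had no partner (background 61.0%) and stood at 28.3 to 62.6.

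Nr1i2 (chr16:38248409-38294910, minus strand), PXR, the sensor of drugs and bile acids that drives cytochrome P450 genes, had a single promoter with a peak of 1883 bp in control and 2084 bp in the inactivated list, at 54.9 and 46.3. Here the distal peaks were more numerous in the inactivated list, 7 compared with 3 in control. Of the 7, 5 had no partner (background 48.3%). Those 5 were 2 upstream, 2 intronic and 1 downstream, at 32.8 to 58.6. The intron site at chr16:38282749-38283778 in control stood at 50.8, and its partner chr16:38282557-38283274 at 92.8, a difference of 42.0 points, with 38.5 points by −log10 p. The other shared site, also in an intron, stood at 42.0 and 41.7.

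Vdr (chr15:97684856-97741061, minus strand), the vitamin D receptor that drives calcium uptake, had promoters P2 and P3 served by 1 peak at 52.2 and 38.9, and P1 and P5 without a peak. P4 had a 401-bp peak in the inactivated list only, at percentile 1.22. Vdr had 10 shared distal sites, the most of the 10 genes. Of these, 4 differed by −25 points or below (19.4% of all distal sites in both lists) and 1 by 25 points or more (12.0%). The intron site at chr15:97693881-97694388 stood at 74.8 in control and 6.66 in the inactivated list, a difference of −68.1 points, and a downstream site stood at 56.3 and 4.49, a difference of −51.8 points. By −log10 p these 2 sites differed by −77.1 and −68.6 points. In the inactivated list their −log10 q was 1.14 and 1.34, near the lowest of that list, 1.00. In the other direction, an upstream site ranked 26.4 points higher, at 62.6 and 89.0, but 20.1 points by −log10 p, and another upstream site ranked lower, at 86.3 and 58.2.

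The strongest distal peaks without a partner were both at Vdr. In control it was chr15:97667962-97668555, downstream of the gene, at 84.1, and in the inactivated list it was chr15:97748484-97748824, upstream, at 86.4. Their central 300 bases are printed with matches on either strand in capitals, to the hexamer AGGTCA of nuclear receptors, to CAAAGTCCA of HNF4, to TGANTCA of AP-1 and to AGATAA of GATA factors, as the strongest examples of peaks in 1 list only:
Vdr control peak, chr15:97668108-97668407, plus strand: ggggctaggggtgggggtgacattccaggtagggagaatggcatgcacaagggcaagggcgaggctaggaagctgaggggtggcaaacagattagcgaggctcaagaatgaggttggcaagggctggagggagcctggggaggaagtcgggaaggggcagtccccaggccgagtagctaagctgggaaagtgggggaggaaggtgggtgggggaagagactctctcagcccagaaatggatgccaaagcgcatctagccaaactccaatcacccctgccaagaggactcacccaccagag
Vdr inactivated peak, chr15:97748504-97748803, plus strand: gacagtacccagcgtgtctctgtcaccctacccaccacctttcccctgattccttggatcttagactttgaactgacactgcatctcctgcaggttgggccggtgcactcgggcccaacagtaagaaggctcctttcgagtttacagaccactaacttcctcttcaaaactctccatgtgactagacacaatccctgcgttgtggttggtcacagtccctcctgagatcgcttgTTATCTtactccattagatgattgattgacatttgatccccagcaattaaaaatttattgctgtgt
The first held none of these and the second held 1 match to AGATAA, which reads TTATCT on the plus strand.

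Rara (chr11:98789132-98836256, plus strand), the alpha retinoic acid receptor, had peaks at 3 of 5 promoters in both lists and the 2 largest rank differences among receptor promoters. P2 stood at 20.2 and 20.0. P4, the start of 1 coding transcript inside the gene, stood at 21.0 in control and 57.4 in the inactivated list, a difference of 36.4 points. Ranked by −log10 p the P4 peak, 1232 bp and 1257 bp wide, differed by 1.97 points, so the difference by fold depends on the measure. P5 stood at 36.3 and 1.02, a difference of −35.3 points, and of −34.3 points by −log10 p. Its peak, chr11:98824790-98825335 in control and chr11:98825067-98825333 in the inactivated list, did not include the start site at 98826186. The P4 promoter and the P5 peak of the inactivated list are printed as the sites with the largest difference in each direction, with CG dinucleotides in capitals:
Rara P4, chr11:98821476-98821775, plus strand: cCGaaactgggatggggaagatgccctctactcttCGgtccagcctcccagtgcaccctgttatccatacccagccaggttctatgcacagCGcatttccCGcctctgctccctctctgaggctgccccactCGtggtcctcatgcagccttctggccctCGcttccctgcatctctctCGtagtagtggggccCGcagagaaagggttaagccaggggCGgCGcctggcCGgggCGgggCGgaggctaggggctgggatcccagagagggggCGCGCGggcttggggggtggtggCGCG
Rara P5 peak, chr11:98825067-98825333, plus strand: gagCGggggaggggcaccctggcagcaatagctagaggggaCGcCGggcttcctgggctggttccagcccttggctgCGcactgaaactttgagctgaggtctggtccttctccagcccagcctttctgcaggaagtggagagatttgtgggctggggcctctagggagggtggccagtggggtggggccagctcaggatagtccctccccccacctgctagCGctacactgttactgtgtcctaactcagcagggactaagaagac
The P4 promoter held 18 CG dinucleotides and the P5 stretch 5. Of 3 shared distal sites of Rara, the strongest lay upstream at the start of Cdc6, at 93.5 and 90.0, and an intron site stood at 12.6 and 55.9, a difference of 43.4 points, but of 4.13 points by −log10 p. Distal peaks without a partner numbered 3 of 6 in control (background 61.0%), at percentiles up to 30.2. In the inactivated list they numbered 5 of 8 (background 48.3%), at percentiles up to 20.4.

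Nr5a2 (chr1:138740161-138857004, minus strand), the orphan receptor LRH-1 known for crypt renewal and bile acid and steroid genes, had its P1 peak at 86.8 in control and 96.1 in the inactivated list, where the fold was 2.45 and 4.31. P2, 6.80 kb further along, had none. The P1 promoter is poor in CG and held AGGTCA, found in 16.2% of coding promoters, and 2 copies of AGATAA, found in 11.9%, here with the matches in capitals, for a promoter with 2 CG dinucleotides and a high rank in both lists:
Nr5a2 P1, chr1:138856955-138857254, minus strand: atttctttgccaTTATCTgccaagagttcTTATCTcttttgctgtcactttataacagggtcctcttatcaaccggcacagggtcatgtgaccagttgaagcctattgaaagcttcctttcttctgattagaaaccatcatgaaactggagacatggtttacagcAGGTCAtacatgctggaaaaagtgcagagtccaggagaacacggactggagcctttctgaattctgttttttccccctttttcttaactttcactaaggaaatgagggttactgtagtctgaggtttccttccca
The shared distal sites of Nr5a2 differed in both directions. An intron site near P1, chr1:138854701-138855021 in control, stood at 76.8 and 7.56, a difference of −69.3 points, and −48.9 points by −log10 p. Its peak was 321 bp wide in control and 1072 bp in the inactivated list. A site downstream of the gene stood at 86.7 and 31.2, a difference of −55.5 points, and −60.7 points by −log10 p. An upstream site, chr1:138863196-138863799, stood at 29.8 and 78.9, a difference of 49.1 points, and 60.7 points by −log10 p. The strongest distal peaks without a partner were a coding exon peak in control at 73.9 and an intron peak in the inactivated list at 79.7.

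Esrra (chr19:6985467-6996303, minus strand), the estrogen-related receptor that drives mitochondrial genes, had a single promoter with the widest peaks of the list, 2305 bp and 2466 bp, at 68.0 and 61.2. The gene is short and lies among other genes, and 4 of 5 control and 3 of 6 inactivated distal peaks were within 1 kb of another start site. Its largest difference was at a downstream site away from other starts, chr19:6974409-6974730 in control and chr19:6973624-6974545 in the inactivated list, at 23.6 and 91.5. This difference of 67.9 points, 69.2 by −log10 p, was the largest positive difference among the 50 shared distal sites, although the peaks had only 137 bp in common. Those 137 bases held 1 match to the AP-1 sequence TGANTCA, in capitals:
Esrra downstream site, chr19:6974409-6974545, plus strand: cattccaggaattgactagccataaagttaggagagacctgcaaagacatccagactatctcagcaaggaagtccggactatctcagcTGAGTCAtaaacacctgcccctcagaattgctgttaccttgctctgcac
The strongest distal peak of Esrra without a partner lay downstream in the inactivated list, at 30.2.

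**Figure D2:**
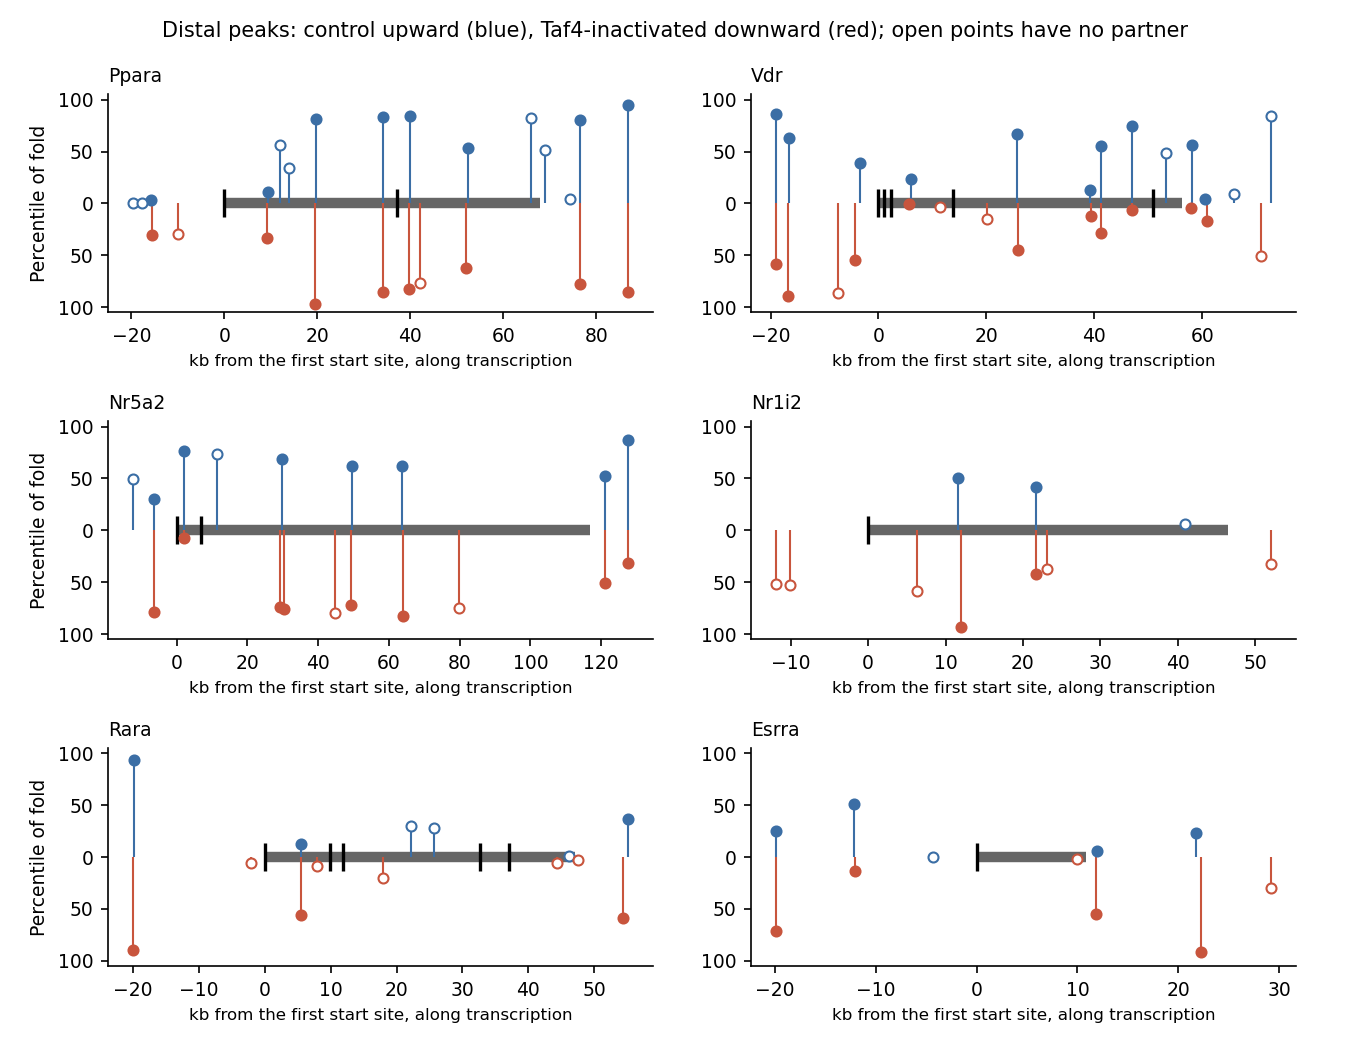
Distal peaks of 6 receptor genes by distance in kb from the first start site along transcription (x axis), with the percentile of fold in control upward and in the inactivated list downward (y axis). Filled points overlap a peak of the other list, open points do not, the grey bar is the gene and black ticks are promoters. Shared sites of Vdr with a tall control and a short inactivated line, and a shared site of Nr1i2 with a taller inactivated than control line, can be seen.

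Distal peaks of the 10 genes without a partner were compared with distal peaks in general. In control 38 of 88 had none (43.2%, exact 95% interval 32.7 to 54.2), compared with 61.0% of all control peaks over 1 kb from coding start sites. In the inactivated list 26 of 77 had none (33.8%, 23.4 to 45.4), compared with 48.3%. Without the peaks at other genes' start sites the counts were 35 of 76 (46.1%, 34.5 to 57.9) and 25 of 67 (37.3%, 25.8 to 49.99), against 61.5% and 48.8% of all peaks over 1 kb from any start site, or 60.3% and 47.9% of those in or within 20 kb of a coding gene. The interval of the inactivated list then included the share of all peaks, and that of control lay below it. Distal peaks of 1 gene share a neighbourhood and are not independent, so the intervals are too narrow. With peaks of a −log10 q of 5 or more, 1 of 8 control and 20 of 27 inactivated peaks had no partner, or 12.5% and 74.1%, where the shares of all distal peaks were 17.8% and 72.0%. The count without a partner was highest in Ppard with 9 of 15 in control and in Nr1i2 and Rara with 5 of 7 and 5 of 8 in the inactivated list. In control the lowest share was at Pparg and Esrra, with 1 of 5 each.

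**Figure D3:**
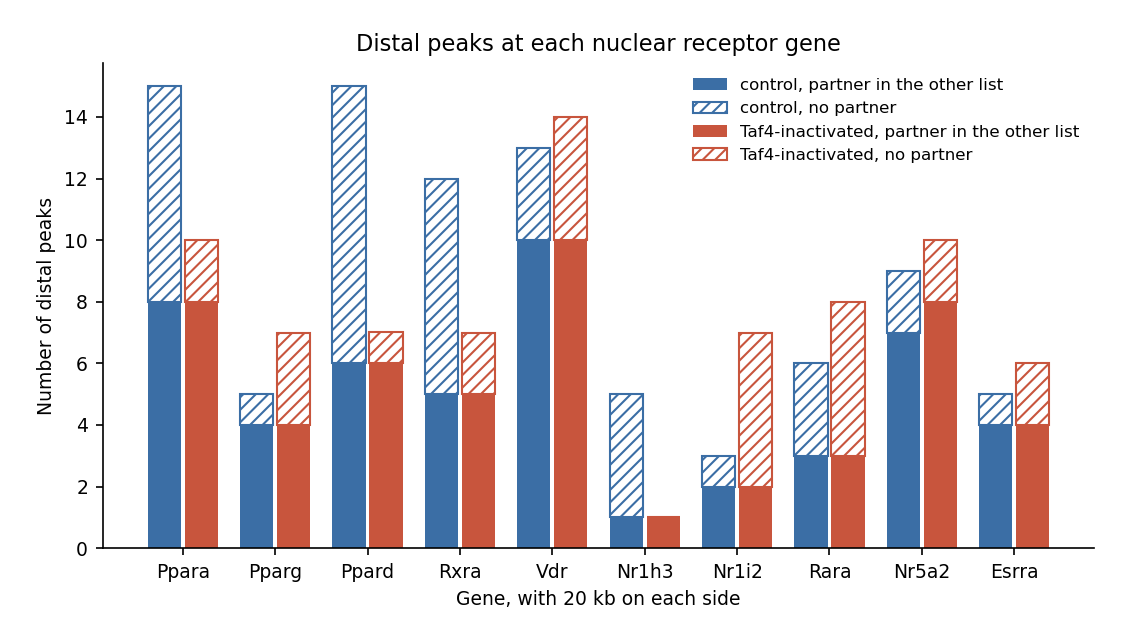
Number of distal peaks (y axis) at each gene with 20 kb on each side (x axis) in control (left bar) and in the inactivated list (right bar). Solid parts overlap a peak of the other list and hatched parts do not. Ppard and Nr1h3 have mostly hatched control bars, and Nr1i2 has a mostly hatched inactivated bar.

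The 50 shared distal sites ranked, at the median, 3.88 points higher in the inactivated list. The median over 28088 distal sites in both lists was −3.13 points. The 28088 leave out sites within 1 kb of coding starts, whereas the 50 include some at other genes' starts. A difference of 25 points or more was found at 13 of 50 (26.0%, exact 95% interval 14.6 to 40.3), where the share of all such sites was 12.0%. A difference of −25 points or below was found at 7 (14.0%, 5.82 to 26.7), where the share was 19.4%. Away from other genes' starts the counts were 11 and 6 of 41 (26.8% and 14.6%), with a median of 5.29 points. The higher sites were spread over 8 genes, 3 each at Ppard and Esrra and 2 at Rxra, with 1 each at Ppara, Vdr, Nr1i2, Rara and Nr5a2, and the lower ones lay at Vdr, Nr5a2 and Esrra. The count of higher sites depended on the ranking value. By −log10 p, an alternative chosen after the data were seen, 6 of 50 were higher by 25 points or more (12.0%, 4.53 to 24.3, background 11.1%), 4 of them among the 13, and 8 were lower (16%, background 22.1%), 7 of them the sites lower by fold. Among the higher sites by fold the difference by −log10 p was 4.13 points at Rara and was 2.17 and 8.49 points at the starts of Bad and Gpr137 and of Prdx5 and Trmt112 beside Esrra.

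**Figure D4:**
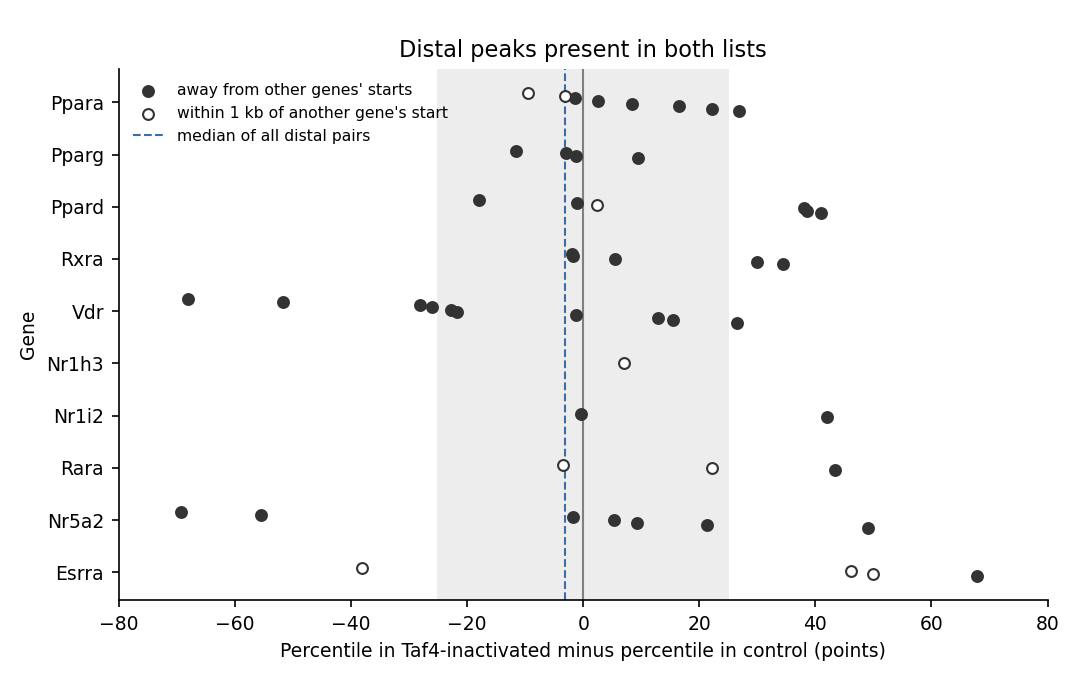
Rank difference (x axis, points, Taf4-inactivated minus control) of each of the 50 shared distal sites by gene (y axis). Open points lie within 1 kb of another gene's start, and the grey band marks differences under 25 points. The dashed line is the median of all shared sites over 1 kb from coding starts, −3.13. Points of Vdr and Nr5a2 reach furthest to the left, and those of Esrra furthest to the right.

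Peaks covered 82754 bp of the 10 loci in control and 72271 bp in the inactivated list, a ratio of 0.873, where the ratio for all peaks was 0.724. By gene the ratio ran from 0.415 at Nr1h3, 0.574 at Ppard, 0.626 at Rxra, 0.751 at Ppara and 0.959 at Pparg to 1.06 at Nr5a2, 1.09 at Rara, 1.15 at Esrra, 1.25 at Vdr and 1.57 at Nr1i2. The median was 1.01, and over 19228 coding loci with control peaks it was 0.764 with quartiles of 0.559 and 1.00. A ratio above 1 was found at 5 of 10 receptor loci and at 25.3% of coding loci. With peaks of a −log10 q of 2 or more the summed ratio was 1.06, where that over all coding loci was 0.927.

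**Figure D5:**
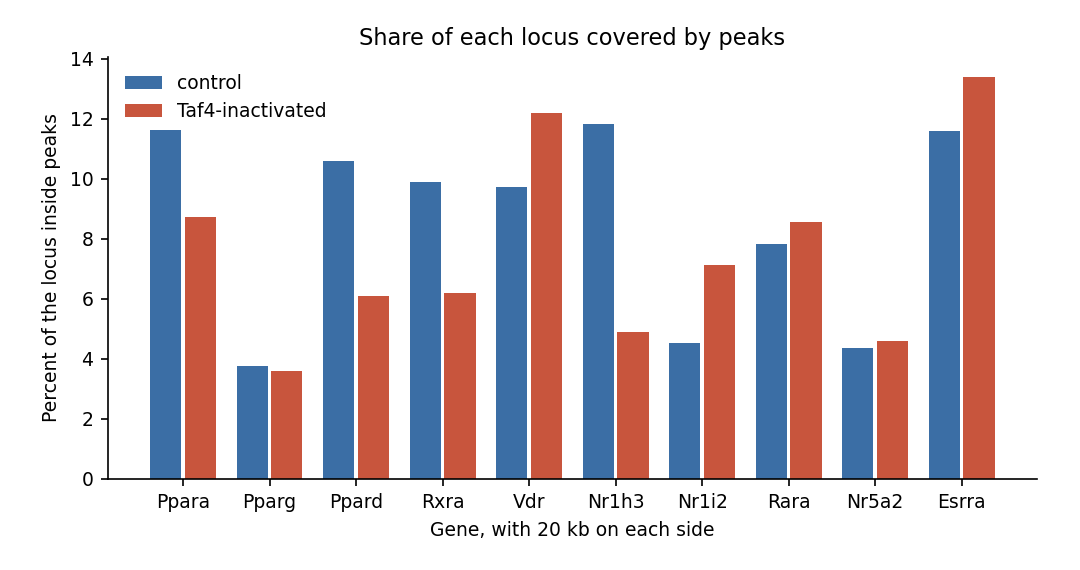
Percent of each locus, the gene with 20 kb on each side, that lay inside peaks (y axis) in control and in the inactivated list, by gene (x axis). Nr1h3 had 11.8% in control and 4.90% in the inactivated list, Nr1i2 had 4.53% and 7.12%, and Vdr had 9.73% and 12.2%.

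Letters that the receptors and some other factors bind were counted in the central 300 bases of the distal peaks away from any start site, on both strands, as a description of the sequence and not of binding. The extended hexamer contains the hexamer, and a repeat may. The hexamer AGGTCA was in 20 of 76 control peaks (26.3%, 16.9 to 37.7) and 20 of 67 inactivated peaks (29.9%, 19.3 to 42.3), compared with 22.0% and 23.8% of all distal peaks. A repeat of the hexamer with 1 base between, up to 2 mismatches, was in 7 and 9 peaks (9.21% and 13.4%), where 6.12% and 7.72% of all distal peaks held one. The extended hexamer TCAAGGTCA was in none, with exact upper limits of 4.74% and 5.36%, and in 0.795% and 0.755% of all distal peaks. CAAAGTCCA was in 0 and 4 peaks against 0.839% and 1.72%, TGANTCA in 10 and 11 against 10.4% and 14.2%, and AGATAA in 8 and 14 against 11.5% and 15.0%. In these 300 bases all intervals at the receptor genes included the share of all distal peaks. In whole peaks, which also differ in width, 3 did not: AGGTCA in control (50%, 38.3 to 61.7, all 38.2%), and in the inactivated list the repeat with 1 base between (23.9%, 14.3 to 35.9, all 13.5%) and CAAAGTCCA (8.96%, 3.36 to 18.5, all 2.82%).

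Examples of the hexamer repeats are printed in the orientation of the match, with the repeat in capitals and 10 bases on each side:
Vdr coding exon, 3 bases between, chr15:97715314-97715348, plus strand: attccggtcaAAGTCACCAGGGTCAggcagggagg
Vdr intron, 1 base between, chr15:97735501-97735533, minus strand: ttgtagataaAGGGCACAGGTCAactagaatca
Nr1i2 intron, 1 base between, chr16:38273244-38273276, minus strand: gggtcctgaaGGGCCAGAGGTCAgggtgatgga
Nr5a2 downstream, 1 base between, chr1:138735865-138735897, plus strand: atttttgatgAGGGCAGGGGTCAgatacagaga
Rara intron, 1 base between, chr11:98807093-98807125, minus strand: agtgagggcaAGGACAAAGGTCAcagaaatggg
A spacing of 3 bases is the type that VDR binds with RXR. In the central 300 bases such repeats were in 4 of 76 control and 5 of 67 inactivated peaks (5.26% and 7.46%). The shares of all distal peaks were 4.25% and 4.44%, inside both intervals. The Vdr coding exon peak with the printed repeat of this spacing stood at 67.0 in control and 45.3 in the inactivated list, and the Nr1i2 and Nr5a2 peaks differed by −0.34 and −1.78 points. The Vdr intron repeat lay in the inactivated peak, at 0.84, and outside the control peak that overlaps it, at 23.6. The Rara peak was in the inactivated list only, at 20.4, and lay within 1 kb of a U6 start, so it was not among the 67. In the 300-base promoter windows AGGTCA was in 9 of 28 receptor promoters and in 16.2% of coding promoters. The 9 include Rxra P2 and Vdr P1, which had no peak, and promoters of 1 gene are not independent. Repeats with 1, 2 or 4 bases between were in 1 of 28 each, at Rxra P2, Vdr P5 and Ppard P2, against 3.81%, 3.11% and 3.10%. Those with 3 bases between were in 0 (all 3.12%), and those with 5 in 2, at Vdr P1 and P4 (all 2.85%).

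Of 39 other nuclear receptor genes, 35 had a promoter peak in both lists (62.1% of coding genes), and Rxrg, Rarb and Nr2e1 had one in control only (6.03% of coding genes). At the promoter with the strongest peaks 3 differed by 25 points or more (background 5.98%) and 5 by −25 points or below (background 9.01%). The higher ones were Nr2e3 from 17.8 to 78.2, Nr1h2 (LXR beta) from 10.1 to 55.7 and Esrrb from 10.9 to 41.1, and Nr1h2 differed by 12.2 points by −log10 p. The lower ones were Nr2f1 from 70.5 to 30.4, Nr4a3 from 83.9 to 46.5, Esr1 from 78.1 to 40.8, Nr0b1 from 83.3 to 49.7 and Nr3c1, the glucocorticoid receptor, from 90.4 to 61.0. By −log10 p Nr3c1 differed by −13.6 points, and the other lower ones by −32.1 points at Nr2f1 to −40.5 points at Esr1. Hnf4a and Hnf4g, receptors known for enterocyte genes, stood at 90.5 and 91.3 and at 71.4 and 87.7.

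Coregulators that receptors recruit had promoter peaks in both lists in 11 of 11 cases (62.1% of coding genes), with 0 of 11 ranked higher in the inactivated list (34.2% of coding genes in both lists) and a median difference of −10.8 points, where the median of 13895 coding genes was −2.79 points. The difference nearest to 0 was −2.54 points, at Med1. In control the median percentile was 92.8, where that of coding genes in both lists was 88.4, and a high percentile leaves little room to rise. The size depended on the ranking value. Nrip1 differed by −9.76 points by fold and −4.43 by −log10 p, and Ppargc1a by −12.9 and −17.1 points.

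Genes that the receptors are known to regulate differed among and within groups. Over all coding genes 6.03% had a peak in control only and 3.13% in the inactivated list only. Of 9 PPAR targets 7 were in both lists. Pdk4, a kinase that limits glucose oxidation, differed by −29.3 points, Fabp1 had a peak in the inactivated list only, at 59.6, and Cyp4a10 had none in either. Of 4 VDR targets S100g, an intestinal calcium-binding protein, stood at 84.7 and 43.6, and Cyp24a1, which degrades vitamin D, at 79.4 and 84.8. Of 6 LXR targets none reached 25 points, with 10.6 points at the peak that the sterol transporters Abcg5 and Abcg8 share and −14.6 points at Abcg1. Of 5 PXR targets Cyp2c55 and Cyp3a11 had a peak in the inactivated list only, at 80.8 and 76.0, and Cyp2b10 was 10.8 points higher. Of 6 RAR targets Isx, a repressor of vitamin A uptake, differed by −33.3 points, Dhrs3 by 24.5 points, and Rarb was in control only. The 4 NR5A2 targets differed by −15.7 points at Cyp11b1 to 9.83 points at Nr0b2, and the 5 targets of the estrogen-related receptors by −4.62 points at Atp5b to 0.74 points at Cycs.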

How the data were processed

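ATAC-seq peaks of 1 control and 1 Taf4-inactivated library were analysed, grouped by the genotype in the labels. The authors mapped unique reads to mm9 with Bowtie 1.0.0 after bcl2fastq 2.17.1.14, and called broad peaks per library with MACS2 2.1.1, with the model turned off and a fixed extension of reads. The deposited score is a rescaled significance, and the deposited fold is a ratio of pileup to the local background of the same library. Significance was deposited as a peak mean of −log10 p and of −log10 q, the lowest −log10 q being 1.01 (control) and 1.00 (inactivated list). Read counts were not given in the sources used here, so depth was estimated from the 5th percentile of the background levels that reproduced fold and p in the narrowest 10% of peaks, 12.1 reads in control and 7.35 in the inactivated list.

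No peak ran past a chromosome end of NCBIM37 (mm9), and GENCODE vM1 of that build gave genes, transcripts and start sites. Where several peaks met a promoter, the one with the highest fold was taken. A partner was a peak of the other list with at least 1 bp in common, and distal sites were ranked in pairs that overlapped each other best. Exact binomial 95% intervals cover counting error only. Python 3.11.15, numpy 2.4.6, pandas 2.3.3, scipy 1.17.1, samtools 1.23.1 and matplotlib 3.10.9 were used. The steps were tested on simulated lists with known answers, and 0 of 19 were off by more than 2%. For depth the simulated peaks had equal widths and single values, so the estimate from means of broad peaks was not checked.

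The 10 genes and all lists were chosen with earlier results of these data known. All 10 genes were named. Of other receptors those in 1 list only or 25 or more points apart were named, of coregulators and targets the largest difference in each direction, and of distal peaks the highest fold with and without a partner. Results for 2 genes that this rule would name are not reported here. Other genes and sites were named after their values were seen. Alternatives changed the distances, transcripts, q threshold, ranking value, overlap, flank and sequence window.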

Additional observations from a re-analysis of the deposited data

How the results depend on the processing

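No paired analysis was possible because each genotype had a single library and the labels carry no replicate number. Of 58 recomputed summary values 36 kept their size, and of 76 single promoter differences 71 kept their side of 25 points. The distance, transcript and widest-peak settings left unchanged every single difference that they still gave. Within 500 bp Vdr P2 and Rara P5 no longer had a difference, and with protein-coding transcripts Nr1h3 P1 and Rxra P4 had none. The 5 that moved did so by −log10 p or by width, at Ppard P2, Rxra P4 and Rara P4. A change of sign was looked for only where the main difference passed 25 points, at Rara P4 and P5, and none was found. The promoters in both lists numbered 14 to 19 under all alternatives. They were 14 of 28 within 500 bp (all 38.2%) and 19 of 28 within 2 kb (all 46.7%). With protein-coding transcripts they were 14 of 22 (all 50.3%), and with starts within 2 kb joined 15 of 23 (all 42.3%). At a −log10 q of at least 2 they were 15 of 28 (all 34.5%). Those in control only were 0 within 500 bp (all 7.41%), 2 within 2 kb (all 9.63%) and 0 at that q (all 4.98%). Those in the inactivated list only were 1 with protein-coding transcripts (all 3.67%) and 1 at that q (all 4.65%). Ranked by width, the median promoter difference was 1.78 points (all 1.44). Of 16 promoters 0 were then higher by 25 points (all 7.81%) and 3 lower (all 9.31%). Ranked by −log10 p, 0 of 16 promoters were higher (all 3.70%) and 2 lower (all 11.01%). Ranked by fold within 500 bp, 0 of 14 were lower (all 9.27%). Of the 50 shared distal sites 6 (all 11.1%) in place of 13 (all 12.0%) were higher by −log10 p. When a partner had to overlap 50% of both peaks, 62.5% of control and 57.1% of inactivated distal peaks had none, against 78.2% and 71.3% of all. With peaks limited to a −log10 q of 2 or more, the inactivated share was 48.3% (all 55.7%), and at 5 the shares were 12.5% of 8 control and 74.1% of 27 inactivated peaks (all 17.8% and 72.0%), so the lower inactivated share at the receptor loci was lost there. The covered ratio was 1.06 at a −log10 q of 2, against 0.927 over all loci. With a flank of 50 kb 3 of 10 loci were above 1 (all 21.1%). AGGTCA was in 50% of whole control peaks (all 38.2%), and in 43.3% of inactivated peaks with 500 bases (all 35.3%) and 49.3% with whole peaks (all 37.3%). The main limit was 1 library per genotype at unequal depth. A difference by fold that was small by −log10 p, as at Rara P4, depends on the ranking value, and the cause was not tested.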
